A study of Mus musculus with 6 samples.

Results

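Bone mineral is laid down outside the cell, and the 10 genes described here encode proteins of the osteoblast matrix or enzymes that set how much mineral forms there: Alpl, Ibsp, Spp1, Bglap, Sparc, Phex, Dmp1, Enpp1, Phospho1 and Mgp. They were chosen by name for that function, and each matched 1 of the 53801 Ensembl identifiers in the count tables. The tables come from MC3T3-E1 cells, a line derived from newborn mouse calvaria and labelled pre-osteoblast. The 3 Control libraries carried a lentivirus with a scrambled, non-silencing RNA, and the 3 Hdac4-knockdown libraries carried the same vector with a short hairpin RNA against Hdac4, a class IIa histone deacetylase. All cells were grown in MEM-α with serum and antibiotics, the vector also expressed ZsGreen1, and transduced cells were selected with puromycin. No mineralizing supplement is named in the growth notes. The labels do not say which of 3 hairpins was sequenced, and the study's text names Hdac4-shRNA3. With 1 hairpin, an effect of Hdac4 and any other effect of that hairpin or of the selected population cannot be told apart. The study's text calls the 3 samples of each group biological replicates. The labels speak of independent RNA samples and do not say whether the transductions were separate, so the p-values measure the spread between these samples.

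Mineral forms when phosphate and calcium precipitate as hydroxyapatite on collagen. Tissue-nonspecific alkaline phosphatase (Alpl) and the phosphatase Phospho1 release phosphate, whereas Enpp1 makes pyrophosphate, which blocks crystal growth and is itself cleaved by Alpl. Acidic matrix proteins bind the mineral. Osteopontin (Spp1), bone sialoprotein (Ibsp) and dentin matrix protein 1 (Dmp1) belong to the SIBLING family of phosphorylated, integrin-binding glycoproteins, osteonectin (Sparc) binds collagen and calcium, and osteocalcin (Bglap) and matrix Gla protein (Mgp) carry vitamin K-dependent Gla residues.

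The libraries held 29096544 to 31651826 counts on genes, so that 3 counts corresponded to 0.0931 to 0.105 CPM, that is, counts scaled to a common library size of 1e6. Hdac4 itself was counted 1243, 1204 and 1136 times in Control libraries and 950, 927 and 887 times in Hdac4-knockdown libraries. Its level was 73.6% of Control, a log2 fold change of -0.44 (SE 0.057, edgeR adjusted p = 8.98e-07). Of its 15813 exon bases, 3536 are shared with Gm26720 on the opposite strand. The library kit does not mark strand, so part of the Hdac4 count is uncertain. The labelled cell type was checked against marker lists. Runx2, the transcription factor that opens the osteoblast lineage, was counted 1954 to 2131 times in Control and 2352 to 2561 times in Hdac4-knockdown libraries. Its normalized levels overlapped (65.3 to 74.6 against 73.0 to 82.9 CPM), with a log2 fold change of 0.19 (SE 0.0584, edgeR adjusted p = 0.00719). Sp7 (osterix), which acts after Runx2, had only 2 to 7 counts in Control against 68 to 112 in Hdac4-knockdown libraries. Some myoblast markers were well expressed in Control: Myod1, the muscle determination factor, had 1848 to 2152 counts and fell to 258 to 296. Others were low in Control already, with 21 to 44 counts for Pax7, 26 to 50 for Ckm and 3 to 10 for Actn2. All 7 osteoblast lineage genes rose and all 7 tested of 8 myoblast genes fell, against 38.0% higher and 37.1% lower of all tested genes. Their summed levels moved from 1596–1664 to 19421–20266 CPM and from 839–878 to 114–129 CPM. Col1a1 (mean 338, then 11015 CPM) and Col1a2 (1213, then 8572 CPM) held most of the osteoblast sum. Des (737, then 102 CPM) held most of the myoblast sum. All 3 tested of 8 adipocyte genes fell (121–132 to 30.2–34.6 CPM, with Lep at 0 and Adipoq at no more than 1 count), and 3 of 4 tested chondrocyte genes rose (126–129 to 320–342 CPM, with Acan at 0). Of 3 tested macrophage and osteoclast genes 2 rose (3.96–5.27 to 77.4–85.7 CPM), Ctsk holding most of that level while Adgre1 was at 0 and Tyrobp at no more than 1 count. Endothelial (0.360–0.668 to 5.61–6.61 CPM) and epithelial (5.93–6.91 to 7.63–9.06 CPM) lists were low, with 2 of 2 and 1 of 2 tested genes higher. Sp7, Dlx5, Pth1r, Col10a1, Csf1r, Pecam1 and Vwf had no more than 8 counts in any Control library. They passed the low-count filter only through the Hdac4-knockdown libraries, which largely set the direction of their calls. Likewise Pax7, at no more than 1 count in any Hdac4-knockdown library, and Ckm, at 9 to 14 counts there, passed only through Control. These lists moved together with every difference described here, and their part in it was not tested. With the lineage markers this far apart and 75.1% of tested genes called, these counts do not show that both groups came from the same starting cells. A difference between the cell populations cannot be told apart from an effect of the knockdown in any value given here. In bulk RNA, fewer cells of a type and less RNA per cell cannot be told apart.

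**Figure D1:**
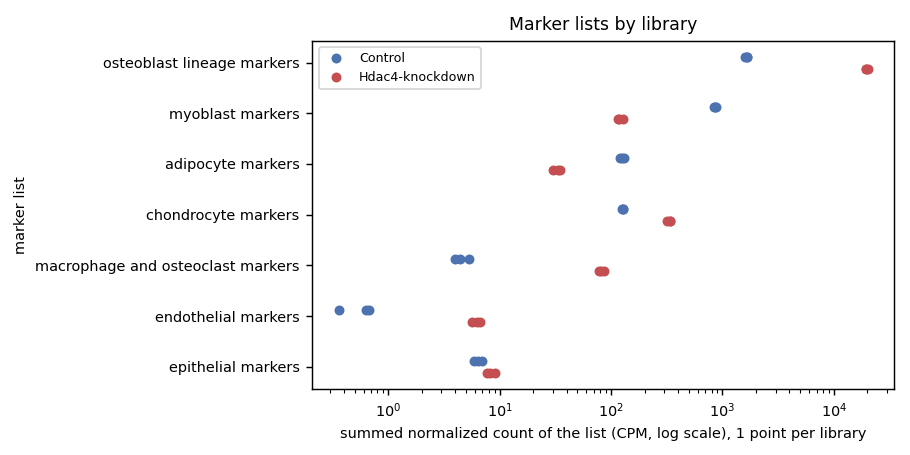
Summed normalized counts (CPM, log scale) of 7 cell type marker lists, with 1 point per library, Control in blue and Hdac4-knockdown in red. The osteoblast lineage list lay at 1596 to 1664 CPM in Control and 19421 to 20266 CPM in Hdac4-knockdown libraries, and the myoblast list at 839 to 878 and 114 to 129 CPM. Col1a1 and Col1a2 held most of the osteoblast sum and Des most of the myoblast sum.

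The matrix and mineralization genes did not move as a block. Dmp1 and Sparc rose in Hdac4-knockdown libraries, Spp1, Mgp, Enpp1 and Phospho1 fell, Phex did not pass the test, and Ibsp, Bglap and Alpl had too few counts to be tested. Of the 7 genes that passed the low-count filter, 2 were thus called higher, against 38.0% of the 14531 genes tested, and 4 lower, against 37.1%. A gene was called where its adjusted p was under 0.05 and its fold change, as log2, lay at least 0.05 from 0. Since 75.1% of all tested genes were called in one direction or the other, being called does not set these genes apart, and their sizes and levels carry the description. The 7 values ran from -2.25 to 2.55 on the log2 scale. Their median was -0.33, whereas that over all tested genes was 0.014. For each of the 6 called genes the 3 libraries of one group lay wholly above the 3 of the other, as they did for 76.8% of all tested genes. The two-sided exact permutation test gave p = 0.1 for each, the smallest possible with 3 against 3. Ranked by p-value among the 14531 genes, Sparc stood at 493, Dmp1 at 673, Spp1 at 1313, Mgp at 2405, Phospho1 at 5070, Enpp1 at 6461 and Phex at 13038.

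**Figure D2:**
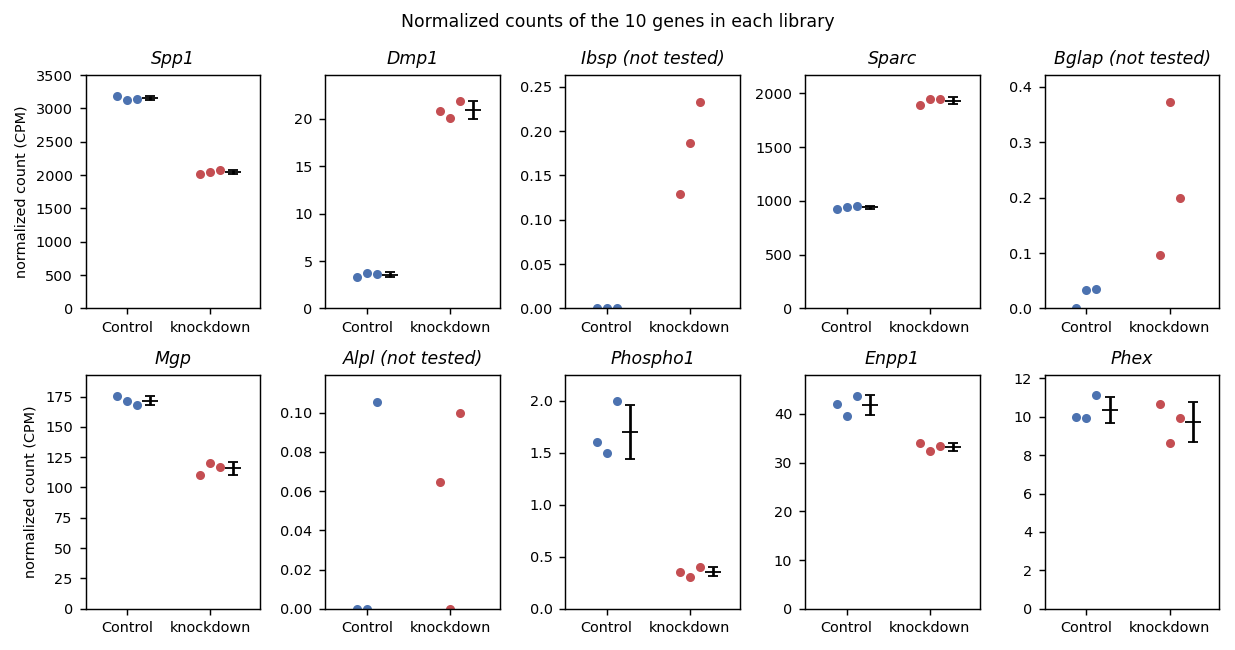
Normalized counts (CPM, TMM-scaled, each panel on its own scale from 0) of the 10 genes, with 1 point per library, Control in blue and Hdac4-knockdown in red, and the mean ± SD (n = 3) in black for the 7 tested genes. Dmp1 and Sparc lay higher in all Hdac4-knockdown libraries, Spp1, Mgp, Phospho1 and Enpp1 lay lower in all of them, and the Phex libraries overlapped.

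Among the SIBLING genes, the most abundant fell while a much rarer one rose. Spp1 (ENSMUSG00000029304; GRCm38 chromosome 5, 104435118 to 104441050, plus strand) encodes osteopontin, which is made by osteoblasts and by many other cells and which binds integrins and slows crystal growth. It was counted 97433, 93689 and 89558 times in Control and 62179, 65942 and 62666 times in Hdac4-knockdown libraries. The lowest Control library thus lay well above the highest Hdac4-knockdown library. The level went from 3154 ± 30.9 to 2046 ± 36.1 CPM (SD, n = 3), or 64.9% of Control, a log2 fold change of -0.62 (SE 0.0338, edgeR adjusted p = 1.82e-12). Per kilobase of exon it stayed the most abundant of the set in both groups. Of its 1648 exon bases, 309 are shared with Gm42793, an overlapping gene on the same strand with 56 to 87 counts per library.

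Dmp1 (ENSMUSG00000029307; chromosome 5, 104202613 to 104214102, plus strand) encodes a mineral-nucleating matrix protein best known from late osteoblasts and osteocytes. It was counted 101, 113 and 104 times in Control and 644, 647 and 659 times in Hdac4-knockdown libraries. The groups did not come near each other. The level rose 5.85-fold, from 3.58 ± 0.243 to 20.9 ± 0.913 CPM (SD, n = 3), a log2 fold change of 2.55 (SE 0.0985, edgeR adjusted p = 7.85e-15), which was the largest increase among the tested genes of the set.

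Ibsp (ENSMUSG00000029306; chromosome 5, 104299171 to 104311469, plus strand) encodes bone sialoprotein, which nucleates hydroxyapatite and marks mineralizing osteoblasts. No Control library held a count, and the Hdac4-knockdown libraries held 4, 6 and 7. Summed over the group this is 17 counts. Scaled for depth, it stood at 5.41 times a floor of 3 counts over the 3 Control libraries. The floor allows for counting error in Control, and that of the 17 counts is not covered. The highest Hdac4-knockdown value was 0.233 CPM. In a fit without the low-count filter Ibsp and Bglap were called higher, so that 4 of the 10 members were. That share stands against 22.3% of the 28015 genes in that fit and 8.14% of the 13484 genes that the filter had removed. No other fit called Ibsp or Bglap higher. For Spp1 the edgeR adjusted p was 8.82e-88 without the filter and 1.82e-12 with it, and why the p-values differ was not tested. Rare genes gained counts widely: 22148 to 22640 genes had a count in Hdac4-knockdown libraries and 19373 to 19797 in Control libraries.

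The 3 genes lie in 1 cluster on chromosome 5 together with Dspp (dentin sialophosphoprotein) and Mepe (matrix extracellular phosphoglycoprotein), and the order along the plus strand is Dspp, Dmp1, Ibsp, Mepe and Spp1 over 270339 bases. Dspp had 1, 0 and 0 counts in Control and 2, 2 and 0 in Hdac4-knockdown libraries, and Mepe 0 in every Control library and 0, 6 and 1 in the Hdac4-knockdown libraries. In the stretch from Nudt9 to Pkd2 (chromosome 5, 104046306 to 104505819), 7 of 15 genes were tested, 5 were higher and 1, Spp1, was lower. Over all tested genes 38.0% were higher and 37.1% lower. Besides Dmp1, the higher genes were Nudt9, an ADP-ribose hydrolase, at a log2 fold change of 0.47 (SE 0.0513), Sparcl1, a relative of Sparc, at 4.46 (SE 0.0599), Gm26703, a gene opposite Sparcl1 that shares no exon bases with it, at 5.55 (SE 0.41, on 0 to 4 counts in Control and 89 to 117 in Hdac4-knockdown libraries) and Pkd2, the polycystin-2 channel next to Spp1, at 1.20 (SE 0.0456). The other tested gene, Gm42793, was at 0.40 (SE 0.188, edgeR adjusted p = 0.059). Spp1 therefore moved opposite to the other called genes of its own stretch, of which Gm26703 passed the low-count filter only through the Hdac4-knockdown libraries. Those libraries largely set the direction of the call of Gm26703.

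**Figure D3:**
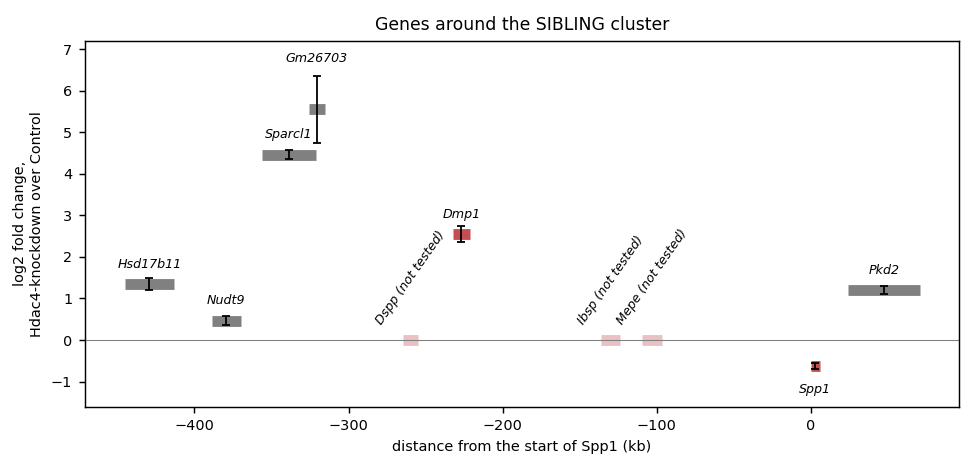
Log2 fold change (Hdac4-knockdown over Control, bars 1.96 SE) of genes around the SIBLING cluster, placed by distance from the start of Spp1 in kb, with SIBLING genes in red and neighbours in grey. Spp1 lies below 0 at -0.62 while Dmp1, Sparcl1, Gm26703, Nudt9, Hsd17b11 and Pkd2 lie above it; the pale bars of Dspp, Ibsp and Mepe mark position only, since these genes were not tested, and the overlapping Gm42793 is left out.

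Promoter sequence is shown for 4 members to place a binding motif of the Runx family, to which Runx2 belongs, beside genes that rose and genes that fell. RefSeq (GRCm38.p6) gave 12 promoters of 300 bases around annotated starts for 9 of the 10 genes, all but Mgp. The Runx core ACCACA, searched on both strands, was present in 5 of the 12, belonging to Spp1, Bglap, Sparc, Dmp1 and Enpp1, and in 16.8% of the 32851 promoters in the table. CTANNNNTAG is a loose pattern for MEF2, factors that class IIa deacetylases bind. It accepts any 4 bases in its middle and only approximates their motif. It was present in 0 of the 12 promoters and in 3.69% of all. With 12 promoters at that share, 0 matches does not set these genes apart. Counted from the start, the Runx match lay at -128 in Spp1, at -164 in the second annotated promoter of Dmp1, at -144 in Enpp1, at -132 in Bglap and at 35 in Sparc, where it falls inside the transcript. The stretches of 100 bases below run 5′ to 3′ on the strand of the gene, and the capitals mark the Runx core. The window is chr5:104434936-104435035 (plus) for Spp1, chr5:104202406-104202505 (plus) for Dmp1, chr10:24712251-24712350 (minus) for Enpp1 and chr3:88384546-88384645 (minus) for Bglap.
Spp1: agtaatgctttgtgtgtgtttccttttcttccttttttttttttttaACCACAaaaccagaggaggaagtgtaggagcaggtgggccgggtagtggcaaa
Dmp1: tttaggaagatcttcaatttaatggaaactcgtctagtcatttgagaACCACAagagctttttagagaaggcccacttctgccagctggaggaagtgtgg
Enpp1: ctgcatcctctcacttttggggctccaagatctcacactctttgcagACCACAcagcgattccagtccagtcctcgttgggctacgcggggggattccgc
Bglap: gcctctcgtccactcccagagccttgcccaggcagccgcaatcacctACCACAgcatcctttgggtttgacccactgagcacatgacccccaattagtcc
Each window was cut around a match, so it holds the core whatever its gene did. Promoters with a core belonged to Dmp1 and Sparc, which rose, to Spp1 and Enpp1, which fell, and to the untested Bglap. Those of Phospho1, which fell, of Phex, which was not called, and of the untested Alpl and Ibsp held none. A relation of the core to the change was not tested. No binding was measured in these samples, and a match is a description of the letters only.

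Sparc (ENSMUSG00000018593; chromosome 11, 55394500 to 55423183, minus strand) encodes osteonectin, a secreted collagen- and calcium-binding protein and one of the major non-collagenous proteins of bone. It was counted 28255, 28257 and 27232 times in Control and 58569, 62859 and 58547 times in Hdac4-knockdown libraries. Every Hdac4-knockdown library exceeded every Control library by a wide margin, and libraries of 1 group differed little. The level rose 2.05-fold, from 941 ± 15.5 to 1929 ± 31.8 CPM (SD, n = 3), a log2 fold change of 1.04 (SE 0.0352, edgeR adjusted p = 9.89e-16). Outside the set, the 3 genes whose centred log2 CPM profile over the 6 libraries lay closest to that of Sparc were Mri1 (Euclidean distance 0.0570, log2 fold change 1.06), Mmp14 (0.0589, 1.00) and Csf1 (0.0608, 1.06). Mri1 encodes an enzyme of methionine salvage, Mmp14 a membrane-bound collagenase and Csf1 the macrophage colony-stimulating factor.

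The ratio of Spp1 to the rising genes within each library does not depend on the scaling between libraries. For each Sparc count, normalized Spp1 counts were 3.45, 3.32 and 3.29 in Control and 1.06, 1.05 and 1.07 in Hdac4-knockdown libraries. These are ratios of counts, not of levels per length. Within a group the 3 libraries lay close together, and the groups differed by -1.66 on the log2 scale. The ratio of Spp1 to Dmp1 went from 965, 829 and 861 to 96.6, 102 and 95.1, a difference of -3.17. These pairs were chosen after Spp1 was seen to fall and Sparc and Dmp1 to rise, which fixes the direction and the separation of the groups, so the ratios are a description with no test. Counts of Ibsp and Alpl were 0 in some libraries, so no ratio was formed with them.

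The Gla proteins were led by Mgp, since osteocalcin was barely counted. Mgp (ENSMUSG00000030218; chromosome 6, 136872435 to 136875823, minus strand) encodes matrix Gla protein, an inhibitor of calcification in cartilage and vessel walls. It was counted 5358, 5137 and 4794 times in Control and 3406, 3874 and 3523 times in Hdac4-knockdown libraries. The groups were separate, with a gap larger than the spread within either. The level went from 172 ± 3.58 to 116 ± 5.18 CPM (SD, n = 3), or 67.4% of Control, a log2 fold change of -0.57 (SE 0.0443, edgeR adjusted p = 5.56e-10). Bglap (ENSMUSG00000074483; chromosome 3, 88383501 to 88384464, minus strand), which encodes osteocalcin, the hormone-like protein of mature osteoblasts, was counted 0, 1 and 1 times in Control and 3, 12 and 6 times in Hdac4-knockdown libraries. The groups did not overlap, but no library exceeded 0.372 CPM. Summed, 2 counts stood against 21, a depth-scaled ratio of 10.0 (95% interval from counting 2.45 to 88.1). Osteocalcin has near-identical copies: 38.7% of the 100-base stretches of Bglap transcripts also occur in Bglap2 or Bglap3, and a read from them aligns to several places and is set aside. Bglap2 had 5, 6 and 4 counts in Control and 11, 7 and 11 in Hdac4-knockdown libraries, and Bglap3 had 0, 0 and 4 and then 3, 11 and 6, so the split among the copies is uncertain.

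Of the enzymes of phosphate release and pyrophosphate supply, Alpl and Phospho1 had few counts and Enpp1 had more, and the counts of Phospho1 and Enpp1 fell. Alpl (ENSMUSG00000028766; chromosome 4, 137741733 to 137796384, minus strand), the phosphatase that clears pyrophosphate and the classic early marker of the osteoblast, was counted 0, 0 and 3 times in Control and 2, 0 and 3 times in Hdac4-knockdown libraries. The groups overlapped at or near 0, so that a difference was not detectable at this depth. None of its 4033 exon bases overlap another gene and no 50-base stretch of it recurs in the transcripts of another gene.

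Phospho1 (ENSMUSG00000050860; chromosome 11, 95824499 to 95832140, plus strand) encodes the phosphatase that frees phosphate from phosphocholine and phosphoethanolamine inside matrix vesicles, where mineral starts. It was counted 49, 45 and 57 times in Control and 11, 10 and 12 times in Hdac4-knockdown libraries. Each Control library held several times the count of any Hdac4-knockdown library. The level fell to 20.8% of Control, 1.70 ± 0.262 against 0.355 ± 0.0442 CPM (SD, n = 3), a log2 fold change of -2.25 (SE 0.314, edgeR adjusted p = 2.47e-06), the largest decrease in the set. Of its 2029 exon bases, 1818 are shared with Abi3 on the opposite strand or Zfp652 on the same strand, and the library kit does not mark strand, so its count is uncertain. Abi3, an adaptor of actin regulation, was counted 15, 16 and 15 times in Control and 5, 5 and 1 times in Hdac4-knockdown libraries (log2 fold change -2.10, SE 0.512, edgeR adjusted p = 0.00111). Zfp652, a zinc finger repressor, moved the other way at 0.53 (SE 0.0516, edgeR adjusted p = 1.5e-08). Abi3 passed the low-count filter only through Control. So did Phospho1, although it kept its call where at least 10 counts in every library were required.

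Enpp1 (ENSMUSG00000037370; chromosome 10, 24637914 to 24712159, minus strand), which makes pyrophosphate from extracellular ATP, was counted 1284, 1186 and 1248 times in Control and 1052, 1043 and 1006 times in Hdac4-knockdown libraries. The groups did not overlap, and the step was small. The level went from 41.8 ± 2.09 to 33.3 ± 0.829 CPM (SD, n = 3), or 79.6% of Control, a log2 fold change of -0.33 (SE 0.0583, edgeR adjusted p = 4.33e-05). Phex (ENSMUSG00000057457; chromosome X, 157162075 to 157415312, minus strand), the endopeptidase whose loss causes X-linked hypophosphatemia and which cleaves peptides of the SIBLING proteins, was counted 306, 298 and 318 times in Control and 330, 278 and 299 times in Hdac4-knockdown libraries. Its libraries overlapped. The levels were 10.4 ± 0.677 and 9.74 ± 1.03 CPM (SD, n = 3), a log2 difference of -0.09 with an interval of 1.96 SE from -0.29 to 0.11 (edgeR adjusted p = 0.428, two-sided exact permutation p = 0.4). The interval leaves room for a change of up to 0.29 on the log2 scale.

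Levels of different genes were compared per kilobase of exon (RPKM), leaving out Phospho1 for its shared bases and the 3 untested genes. In all 3 Control libraries the order was Spp1 (1899–1935 RPKM), Sparc (244–252), Mgp (142–148), Enpp1 (3.86–4.27), Phex (1.58–1.77) and Dmp1 (1.20–1.37). No neighbours in this order overlapped. In all 3 Hdac4-knockdown libraries Dmp1 (7.26–7.92 RPKM) stood above Enpp1 (3.16–3.31) and Phex (1.37–1.70), and the order was otherwise the same, with Spp1 at 1219–1263, Sparc at 500–515 and Mgp at 92.7–101 RPKM. Dmp1 thus went from last place to one above Enpp1 and Phex, while the 3 abundant matrix genes kept their places.

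The 10 genes together took 0.420% to 0.428% of gene counts in Control and 0.416% to 0.429% in Hdac4-knockdown libraries, and these ranges overlap. On the TMM scale their summed levels were 4301 to 4346 CPM and 4079 to 4210 CPM, lower in every Hdac4-knockdown library, so whether the total differed depends on the scaling. The make-up of that total changed far more, as given here in counts, which also depend on gene length. Spp1 held 72.6% to 73.4% of the counts on the 10 genes in Control and 49.0% to 49.4% in Hdac4-knockdown libraries, and Sparc went from 21.3–22.1% to 46.2–46.7%. Mgp went from 3.89–4.04% to no more than 2.88%, and Dmp1 from 0.0761–0.0878% to 0.480–0.520%. Spp1 and Sparc together held 94.7% of these counts in each Control library and 95.6% to 95.7% in the Hdac4-knockdown libraries, and these 2 genes moved in opposite directions.

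**Figure D4:**
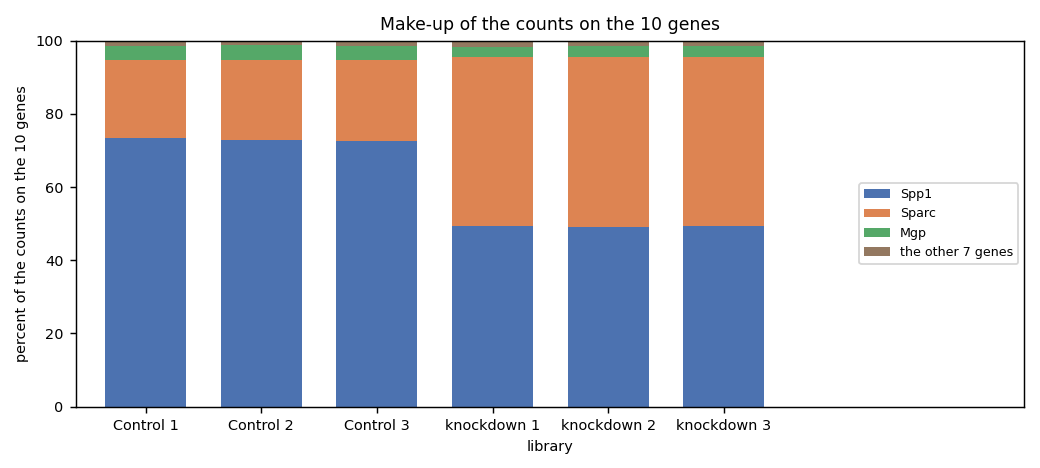
Make-up of the counts on the 10 genes in each library, as percent stacked to 100, for Spp1, Sparc, Mgp and the other 7 genes together. Spp1 falls from 72.6–73.4% in the 3 Control libraries to 49.0–49.4% in the 3 Hdac4-knockdown libraries, and Sparc takes most of the difference.

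Other genes of the same pathways were taken from 4 lists by function, 34 genes of which 22 were tested, with 14 higher, 7 lower and 1 not called. Over all tested genes 38.0% were higher and 37.1% lower, and the counts of each list stand against these shares. Being called does not set these genes apart either. Among the 11 genes of phosphate and pyrophosphate handling, 4 of 10 tested were higher and 5 lower, and the median of the 10 was -0.06 on the log2 scale. The lowest was Enpp3, a nucleotide pyrophosphatase related to Enpp1, at -1.51 (SE 0.131, edgeR adjusted p = 3.01e-09), and its counts fell from 244–295 to 87–106. The sodium-phosphate importers Slc20a1 (-0.50) and Slc20a2 (-0.30) were lower too, as were, by a little, the pyrophosphate transporter gene Ank (-0.13, edgeR adjusted p = 0.0428) and the phosphate exporter gene Xpr1 (-0.13, edgeR adjusted p = 0.0405). Higher were Smpd3, a sphingomyelinase that bone mineralization requires, at 0.96 on 10 to 17 and 23 to 33 counts, and Enpp2 (autotaxin) at 0.91, Nt5e (the ectonucleotidase CD73) at 0.39 and Entpd5, a nucleoside diphosphatase, at 0.25. The nucleoside transporter gene Slc29a1 was at 0.0074 (edgeR adjusted p = 0.885).

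Of the 8 further SIBLING and osteocyte genes only 3 could be tested. Fam20c, the kinase that phosphorylates SIBLING proteins, was at 0.11 and its partner Fam20a at 0.19, both called higher, whereas Pdpn (podoplanin), a marker of cells on the way to osteocytes, fell by 0.61 on the log2 scale. Sost and Galnt3 had no count in any library, and Fgf23 had 0, 0 and 0 and then 2, 3 and 0 counts. The osteocyte-associated Dmp1 was therefore not accompanied by counts of Sost.

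All 4 tested genes of the Gla and vitamin K list were higher, against 38.0% of all tested genes. Gas6, a Gla-containing ligand of receptor tyrosine kinases, had the largest log2 fold change at 4.90 (SE 0.0968), on 44 to 49 and then 1375 to 1622 counts, and Pros1 (protein S) was at 1.14. The carboxylase gene Ggcx, which makes the Gla residues of Mgp and Bglap, was at 0.34 and Vkorc1l1, a vitamin K reductase gene, was lowest at 0.14 (edgeR adjusted p = 0.0466). In the SPARC family 4 of 5 tested genes rose with Sparc: Sparcl1 at 4.46 (204 to 214 and then 4607 to 5052 counts), Spock2 (testican-2, 210 to 223 and then 2266 to 2577 counts), Smoc1 at 2.24 and Smoc2 at 1.76. The fifth, Fstl1, was at -0.10 (edgeR adjusted p = 0.0436). The median of these 5 log2 fold changes was 2.24, against 0.014 over all tested genes, and is the value of Smoc1 itself. Smoc1 had 3 to 13 counts in Control and 40 to 43 in Hdac4-knockdown libraries, and passed the low-count filter through the latter. The untested Spock1 had 0, 3 and 2 counts in Control and 0 in every Hdac4-knockdown library, and Spock3 had none. The calls of Ank, Xpr1, Fstl1, Fam20c, Vkorc1l1 and Smpd3 were lost under 2 or more other settings.

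**Figure D5:**
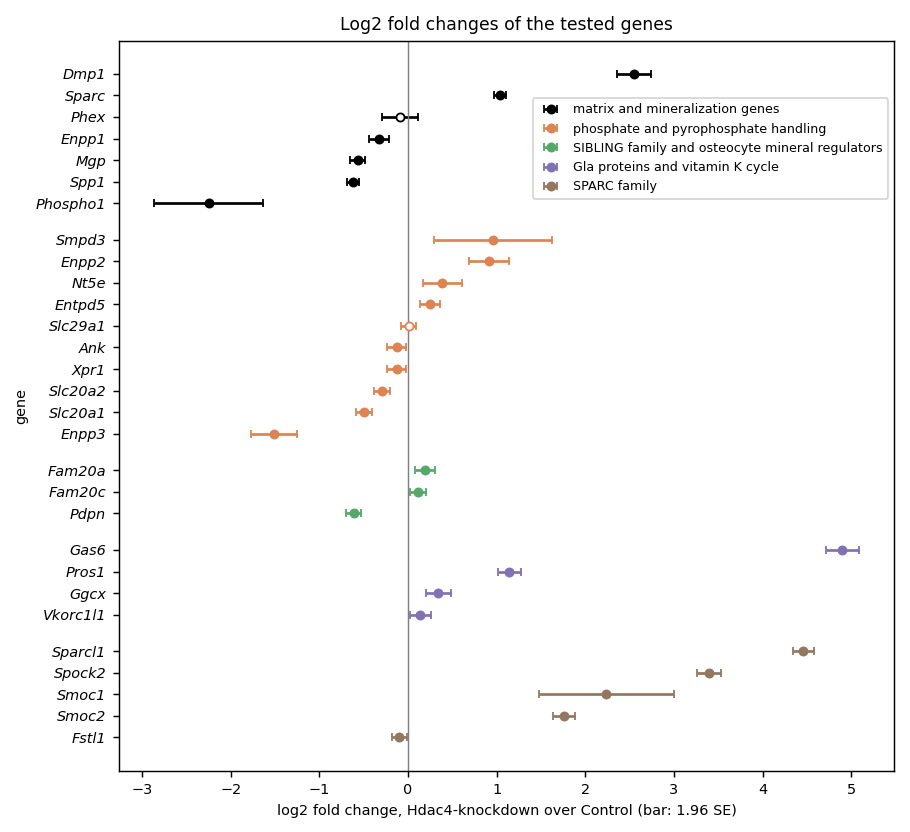
Log2 fold changes (Hdac4-knockdown over Control, x axis) of the 7 tested matrix and mineralization genes and of 22 tested genes from 4 pathway lists, with bars of 1.96 SE, filled points called and open points not called. The set itself spreads from Phospho1 at -2.25 to Dmp1 at 2.55, while the SPARC family lies to the right of 0 except Fstl1 at -0.10.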

How the data were processed

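Poly-T selected RNA of 6 libraries was prepared with a kit that does not mark strand and sequenced in pairs. Per the labels, the authors deposited raw counts per Ensembl gene, without normalization, and the submitters' processing notes name FastQC, STAR 2.7.3a, HTSeq 0.12.4 and mm10. The annotation release and the counting mode are not given in the sources used here. The summary lines (14.3% to 15.0% of reads per library, including reads in no feature, shared between genes or aligned to several places) were left out. GENCODE M21 (GRCm38) gave symbols and positions for 53706 of 53801 identifiers.

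Counts were fitted over all genes with edgeR 4.0.16 in R 4.3.3: TMM scaling, filterByExpr, quasi-likelihood F test of 3 Control against 3 Hdac4-knockdown libraries, Benjamini-Hochberg adjustment over 14531 genes. Calls used adjusted p below 0.05 and a log2 fold change beyond 0.05, the cutoffs of the study. Libraries of one group differed by more than sampling noise (chi-square per degree of freedom 3.38 to 9.15). The biological coefficient of variation was 4.79%. Intervals for rare genes cover counting error only, and the floor allows for it in Control alone. The genes and lists were chosen with earlier results of these data known. Named were all 10 genes, Hdac4, tested genes of the 4 pathway lists, including the highest and lowest of each, and 3 nearest profiles to the called gene with the smallest p. Neighbours and markers were named by position or list. Alternatives were DESeq2 1.42.0, limma 3.58.1 (voom), other scalings, filters and thresholds, a replicate block and each library left out. The planned ratios of Alpl to Enpp1 and Spp1 to Ibsp could not be formed because of counts of 0, and the 2 ratios given were chosen after seeing the data. Promoter sequences are from RefSeq (GRCm38.p6).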

Additional observations from a re-analysis of the deposited data

Results flagged for a closer look

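A signal outside the tested genes was seen for Ibsp, with 17 counts summed over the 3 Hdac4-knockdown libraries and 0 over the 3 Control libraries, and for Bglap, with 21 counts against 2. Both lie under the low-count filter. The part of reads in no annotated feature was also higher in Hdac4-knockdown libraries, 4.64% in the lowest of them against 3.17% to 3.41% in Control libraries, and its relation to the counts of the 10 genes was not tested.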

How the results depend on the processing

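For the 7 tested matrix and mineralization genes, all 98 alternative values kept the direction and the side of the threshold, and so did the 14 for Hdac4. Log2 fold changes ranged from -0.65 to -0.54 for Spp1, from 1.01 to 1.12 for Sparc, from 2.48 to 2.64 for Dmp1, from -0.60 to -0.48 for Mgp, from -0.38 to -0.24 for Enpp1, from -2.34 to -2.13 for Phospho1 and from -0.15 to -0.0019 for Phex. Upper quartile scaling moved the median gene from 0.014 to 0.10, and dropping the low-count filter moved it to 0.25. Same-numbered libraries did not deviate together (correlations -0.0113, 0.0346 and 0.0175), and the replicate block again gave 2 members higher and 4 lower, and 14 and 7 pathway genes. Without a low-count filter 28015 genes were tested and 4 members were higher (6253 genes in all), as Ibsp (5.49, edgeR adjusted p = 0.00309) and Bglap (3.07, edgeR adjusted p = 0.0156) then passed while Alpl did not (0.58, edgeR adjusted p = 0.768). With a log2 fold change beyond 1, only Phospho1 of the members was called lower (1 gene).

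Beyond 0.5, 3579 genes were higher and 2879 lower, and beyond 1, 2397 and 1543. Of the pathway genes 8 were then higher and 2 lower beyond 0.5, and 6 and 1 beyond 1. Lower pathway genes numbered 4 with library size alone, with upper quartile scaling and with at least 10 counts in every library, and 4 to 6 with a library left out (4 without Control replicate 3 or Hdac4-knockdown replicate 3). Of the pathway genes' values, 266 kept their call, 37 lost it and 4 reversed, all Slc29a1, which was at -0.021 without a filter and between -0.029 and 0.036 with a library left out, below 0 in 3 of these fits. The cause was not tested. Depth limits Alpl, Ibsp and Bglap, at 12 counts or fewer per library.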
